A study of Mus musculus with 15 samples.

Results

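The Hox genes of the mouse knee joint were described over the 15 arrays of a study of collagen-induced arthritis (CIA), in which mice immunized against type II collagen develop inflamed joints. A gene was a member when a probe set carried its symbol alone, a symbol being Hoxa, Hoxb, Hoxc or Hoxd followed by a number. A gene with several probe sets was represented by the one with the highest mean over the 15 arrays. By this rule 33 of the 39 Hox genes in the RefSeq gene table were found, among 18194 genes named by a single symbol. The other 6 were not analysed here.

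Total RNA of knee joint synovium was hybridized to Affymetrix arrays in 5 groups of 3: healthy naive joints, and joints of CIA mice with no, mild, moderate or severe swelling. The mice received 100 µg of the collagen in FCA on day 0, and a second 100 µg was given i.p. on day 21. The protocol text is the same for every sample, the naive ones included, and was read as describing the CIA mice. The labels give no strain, age or sex, and nothing says whether the replicates were separate animals, so the p-values reflect the scatter among these samples, which may be technical. The values are MAS5 signals, a linear brightness scaled by the authors, and the median over probe sets lay between 36.3 and 47.6 on the 15 arrays. Prg4, the lubricin of the synovial lining, had signals of 2104 to 2856 on the naive arrays and 7687 to 9998 in severe swelling. The skeletal muscle genes Acta1 and Ckm were bright on every array (at least 5147 and 5151), so muscle transcripts were present in the material labelled synovium.

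Hox genes encode homeodomain transcription factors that give cells their position along the body and limb axes. In mammals they lie in 4 clusters, HoxA to HoxD, in which the order of the genes follows the order of their domains of expression, and genes at the same place in different clusters are called paralogues. In the limb, the paralogues numbered 9 and 10 act in the proximal segments that end at the knee, those numbered 11 in the segment below it, and those numbered 13 in the hand and foot. Adult connective tissue cells keep a Hox pattern that reflects where in the body they lie. Hox proteins bind sequences with a TAAT core, often together with the TALE cofactors Pbx, Meis and Pknox, and the clusters are held silent by Polycomb proteins and kept active by trithorax proteins.

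Promoters are shown for 3 neighbours of the HoxD cluster, Hoxd8, Hoxd9 and Hoxd10, and for Hoxa11. In the values as deposited the 3 neighbours were lower in severe than in no swelling, while Hoxa11 was higher. The promoter set held no entry for Hoxc10, Hoxc9, Hoxc8 or Hoxb9, so theirs are not shown. The sequences are RefSeq's for GRCm38.p6, from 250 bases before to 50 after the gene start and read along the gene. Capitals mark TAAT on either strand (TAAT or ATTA).
Hoxd8: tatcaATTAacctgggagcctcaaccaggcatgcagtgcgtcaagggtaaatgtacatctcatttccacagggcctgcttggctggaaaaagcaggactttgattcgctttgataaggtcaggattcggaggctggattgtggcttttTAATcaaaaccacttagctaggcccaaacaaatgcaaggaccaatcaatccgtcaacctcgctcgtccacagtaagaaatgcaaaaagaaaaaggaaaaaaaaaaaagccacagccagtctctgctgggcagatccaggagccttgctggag
Hoxd9: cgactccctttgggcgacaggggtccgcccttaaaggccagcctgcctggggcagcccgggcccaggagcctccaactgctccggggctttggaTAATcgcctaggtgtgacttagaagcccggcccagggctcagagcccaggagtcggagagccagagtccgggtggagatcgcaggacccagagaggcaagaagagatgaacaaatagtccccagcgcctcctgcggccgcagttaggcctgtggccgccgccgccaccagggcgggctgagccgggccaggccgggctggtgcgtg
Hoxd10: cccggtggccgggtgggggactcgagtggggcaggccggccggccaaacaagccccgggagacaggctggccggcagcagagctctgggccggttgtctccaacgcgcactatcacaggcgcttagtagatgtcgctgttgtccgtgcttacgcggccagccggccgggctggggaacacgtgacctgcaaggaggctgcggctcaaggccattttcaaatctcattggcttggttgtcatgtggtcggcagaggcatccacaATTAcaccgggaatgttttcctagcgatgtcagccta
Hoxa11: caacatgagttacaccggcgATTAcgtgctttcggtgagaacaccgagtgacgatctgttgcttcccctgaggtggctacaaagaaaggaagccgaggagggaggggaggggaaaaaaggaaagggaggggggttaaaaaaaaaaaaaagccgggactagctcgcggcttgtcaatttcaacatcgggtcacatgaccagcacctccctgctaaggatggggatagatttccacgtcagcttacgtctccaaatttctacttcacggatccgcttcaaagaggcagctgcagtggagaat
The windows are chr2:74704365-74704664 on the plus strand for Hoxd8, chr2:74697513-74697812 on the plus strand for Hoxd9, chr2:74691641-74691940 on the plus strand for Hoxd10 and chr6:52245761-52246060 on the minus strand for Hoxa11. The core occurred in 2 places in the Hoxd8 window and in 1 place in each of the others. Of the 32851 promoter windows of 300 bases in the table, 58.0% held it, and of the 21 windows of 19 members with an entry, 17 (81.0%) did. The Hoxd8 window had a GC content of 46.7% with 6 CG dinucleotides, whereas those of Hoxd9 and Hoxd10 had 68.3% with 20 and 62.7% with 22, and that of Hoxa11 51.0% with 15. The median window of the table had 7 CG dinucleotides and the median Hox window 15. A match of the core is a description of the letters and not a binding site.

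The members differed in how many arrays gave a signal. Taking the 40th percentile of an array's own probe sets (23.4 to 31.1 in signal) as the mark, 14 members were above it on all 15 arrays, 10 on 3 to 14 arrays and 9 on fewer than 3. These are 42.4%, 30.3% and 27.3% of the members, beside 55.9%, 22.8% and 21.3% of all named genes, and 72.7% of members and 78.7% of named genes passed the filter of 3 arrays. The mark is a filter and not a test of detection. The genes above it on every array were Hoxa3, Hoxa5, Hoxa9, Hoxa10 and Hoxa11, Hoxb3, the HoxC genes Hoxc4, Hoxc5, Hoxc6, Hoxc8, Hoxc9 and Hoxc10, and Hoxd8 and Hoxd9.

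As a description with no test, HoxC, on chromosome 15, had 6 of its 7 members above the mark on every array, and its last measured gene, Hoxc13, on none. HoxA, on chromosome 6, had 5 of 9, HoxD, on chromosome 2, had 2 of 8, and HoxB, on chromosome 11, had 1 of 9. By paralogue number, 5 of the 7 members numbered 9 or 10 were above the mark on every array, against 1 of the 7 numbered 11 to 13, which was Hoxa11. RefSeq holds 9 HoxC genes, and those between Hoxc10 and Hoxc13 were not analysed. The HoxC share and that of numbers 11 to 13 are therefore over measured genes only. The members above the mark on some arrays were Hoxa4, Hoxa13, Hoxb2, Hoxb4, Hoxb6, Hoxb7, Hoxb9, Hoxd3, Hoxd10 and Hoxd13.

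The 9 members below the filter were Hoxa2, Hoxa7, Hoxb1, Hoxb5, Hoxb13, Hoxc13, Hoxd1, Hoxd11 and Hoxd12. Their signals lay between 0.6 and 28.6 over the 15 arrays, and Hoxa2 and Hoxb1 were each above the mark on 1 array. Hoxb13 and Hoxc13, known from the tail, prostate and hair, stayed at or below 4.3 and 6.4. These genes were not tested.

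**Figure D1:**
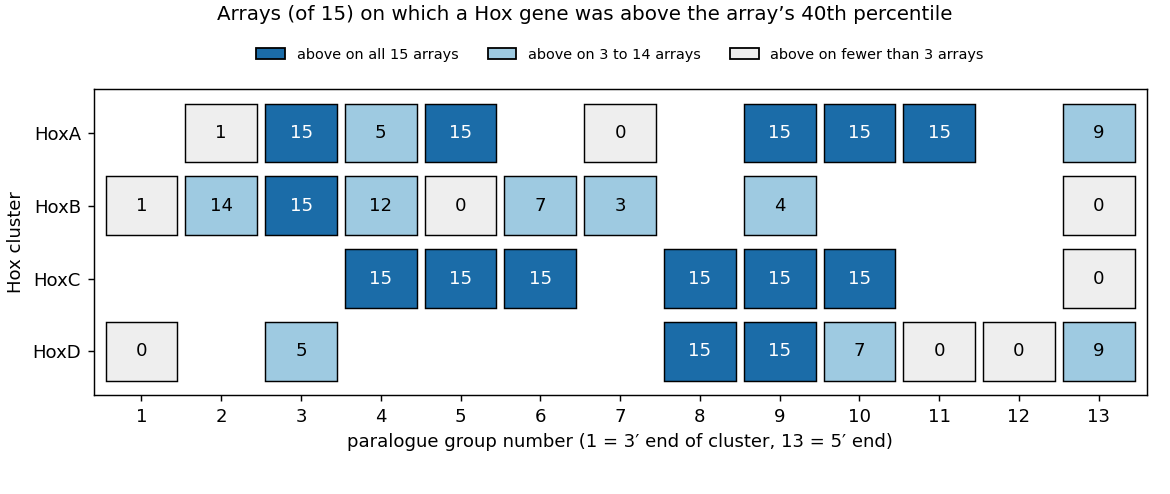
Each box is a Hox gene, placed by cluster (rows) and paralogue number (columns), and the number in it is how many of the 15 arrays had its signal above the array's 40th percentile. The HoxC row is filled from Hoxc4 to Hoxc10, whereas the genes numbered 12 and 13 are above the mark on at most 9 arrays.

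Between severe swelling and naive joints, which asks what differs at the highest grade of inflammation, Hoxc10, Hoxc9, Hoxd8, Hoxd9, Hoxb9 and Hoxa4 were lower and Hoxa11 and Hoxc8 were higher. Hoxc10 had the lowest log2 fold change, with a mean signal 2.95-fold below naive. Of the 24 tested members, 8 (33.3%) were thus called at a limma adjusted p under 0.05, 2 higher and 6 lower, where 55.2% of the 14315 genes tested were called, 32.3% higher and 22.9% lower. The share of members called lower was 25.0% and the share called higher 8.33%. Hoxb9 and Hoxa4 passed the filter only through naive arrays and arrays without swelling, so a lower value in severe swelling was built into their choice. Without them 4 of 22 members (18.2%) were called lower. The median log2 fold change over the 24 members was -0.13, and over all genes it was 0.11. The severe arrays lay above all naive arrays for 3 members, Hoxa11, Hoxc8 and Hoxb6, and below them for the 6 called lower, against 36.1% and 26.1% of all genes.

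The split depended on how the arrays were scaled: 1 higher and 7 lower after quantile normalization, 0 and 9 with array medians aligned, and 4 and 1 when scaled on 9 hybridization control probe sets. Those scalings put the median over all genes at 0.00, -0.07 and 0.53, against 0.11 as deposited. The share of all genes called under each of them is not given. These splits, and the later ones under other scalings, are therefore no result about Hox genes in particular. The count of 8 fell to 5 without naive replicate 1 or without severe replicate 1. With 3 arrays on each side, the smallest p that an exact permutation test allows is 0.1.

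**Figure D2:**
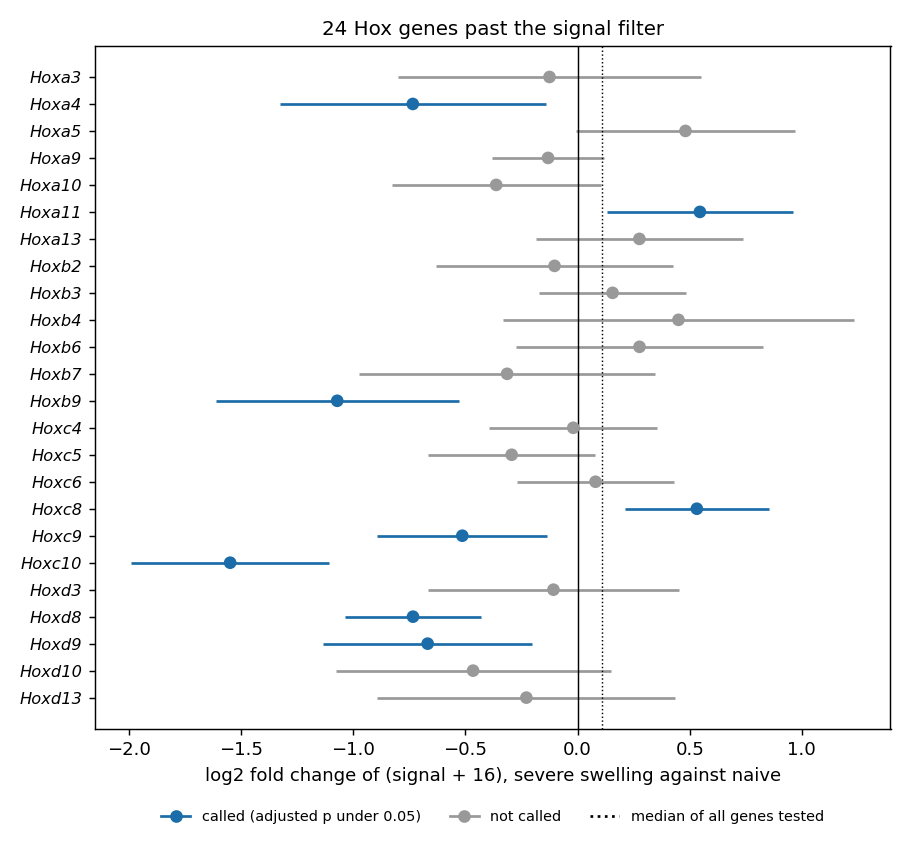
Points are log2 fold changes of signal plus 16, severe swelling against naive, for the 24 tested Hox genes, with the 95% confidence intervals of the limma fit, 3 arrays a group. The 8 called genes are blue and the dotted line is the median of all genes tested, 0.11; Hoxc10 lies furthest to the left at -1.55.

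Hoxc10, a gene of the hindlimb and lumbar region that is also expressed in subcutaneous white fat, had signals of 1255, 1387 and 1545 on the naive arrays and 1130, 1038 and 1109 without swelling. They were 533, 893 and 450 in mild, 535, 439 and 465 in moderate and 463, 595 and 364 in severe swelling. All 9 arrays with swelling lay below all 6 without. The CIA arrays without swelling also lay below the naive ones, though that difference was not called. The log2 fold change was -1.55 ± 0.21 (SE, adjusted p = 1.35e-05) in severe, -1.51 ± 0.21 (1.76e-05) in moderate and -1.19 ± 0.21 (0.000363) in mild swelling, each against the same naive arrays. The mild call was lost on the hybridization controls (-0.56, adjusted p = 0.216). Hoxc10 was called in severe swelling under all 26 alternative settings, with log2 fold changes of -1.76 to -1.04. Against joints without swelling it was lower by -1.20 ± 0.21 in severe (adjusted p = 0.000147) and -0.85 ± 0.21 in mild swelling (0.00458), and both calls were lost when scaled on the hybridization controls (-0.56, adjusted p = 0.186, and -0.08, adjusted p = 0.863). Relative to the median of all genes, the severe difference was -1.66 as deposited, -1.47 after quantile normalization, -1.69 with medians aligned and -1.58 on the hybridization controls. Outside quantile normalization, a scaling factor nearly cancels in this difference. The closeness of these values is therefore built in and lends no support to the fall.

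Its neighbour Hoxc9, also known as a marker of white fat, had 280, 274 and 213 in naive joints and 270, 271 and 256 without swelling. The signals were 159, 254 and 178 in mild, 131, 150 and 189 in moderate and 145, 205 and 174 in severe swelling. The moderate and severe arrays all lay below the naive ones, and mild swelling overlapped with them. Hoxc9 was lower by -0.51 ± 0.18 in severe (adjusted p = 0.0225) and by -0.66 ± 0.18 in moderate swelling (0.00526). The severe call was lost without naive replicate 1, naive replicate 2 or severe replicate 1 (adjusted p 0.0742 to 0.105), and on the hybridization controls the difference was -0.04 (adjusted p = 0.941), with -0.20 in moderate swelling (adjusted p = 0.688).

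The next gene of the cluster went the other way. Hoxc8, which acts in the thoracic region, had 189, 146 and 128 in naive joints and 166, 216 and 164 without swelling. It had 171, 149 and 204 in mild, 234, 234 and 226 in moderate and 234, 235 and 215 in severe swelling. The moderate and severe arrays were above all naive arrays, while severe and no swelling overlapped. Hoxc8 rose by 0.53 ± 0.15 in severe (adjusted p = 0.00724) and by 0.55 ± 0.15 in moderate swelling (0.0059). With array medians aligned the severe difference was 0.33 and was not called (adjusted p = 0.0841).

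A scaling factor nearly cancels between genes of 1 array, so the difference Hoxc10 minus Hoxc8 in log2(signal + 16) was taken within each array, a pair chosen after its values were seen. It was 3.06 ± 0.41 (SD, n = 3) in naive joints, 2.49 ± 0.27 without swelling, 1.70 ± 0.70 in mild, 1.0 ± 0.14 in moderate and 0.98 ± 0.29 in severe swelling. The naive and severe arrays did not overlap (exact permutation p = 0.1, the smallest possible). The mean changed by -2.08 from naive to severe joints, given as a description of this pair.

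In the HoxD cluster, Hoxd8, a gene of the trunk and proximal limb, had 548, 561 and 586 in naive joints and 418, 597 and 570 without swelling. The signals were 322, 397 and 301 in mild, 278, 267 and 310 in moderate and 343, 361 and 299 in severe swelling. All 9 arrays with swelling lay below all 6 without. Hoxd8 fell by 0.73 on the log2 scale (SE 0.14, adjusted p = 0.000401) in severe, by 0.95 (3.98e-05) in moderate and by 0.71 (0.001) in mild swelling. A different probe set of the same gene fell by 0.53 in severe swelling (adjusted p = 0.00948). On the hybridization controls none of the 3 was called: -0.24 in severe (adjusted p = 0.62), -0.47 in moderate (adjusted p = 0.308) and -0.09 in mild swelling (adjusted p = 0.856). Relative to the median of all genes the severe difference lay between -0.87 and -0.75 under the 4 scalings. As for Hoxc10, that closeness is largely built in and lends no support.

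Hoxd9, which acts in the proximal limb and the lumbosacral region, had 255, 257 and 258 in naive joints and a wider 174, 336 and 264 without swelling. It had 223, 172 and 153 in mild, 132, 149 and 198 in moderate and 183, 177 and 116 in severe swelling. Each swelling group lay below the naive arrays and overlapped with the group without swelling. Hoxd9 fell by 0.67 (SE 0.22, adjusted p = 0.017) in severe and by 0.65 (0.0197) in moderate swelling. The severe call was lost without severe replicate 3 (adjusted p = 0.0962) and on the hybridization controls (-0.19, adjusted p = 0.685). The moderate call was lost without moderate replicate 1 (adjusted p = 0.0861) or 2 (adjusted p = 0.0555), and on the hybridization controls (-0.19, adjusted p = 0.699).

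Hoxb9, which patterns the ribs with the other genes numbered 9, had 48.1, 37.6 and 43.5 in naive joints and 19.8, 23.4 and 31.4 without swelling. The signals were 16.1, 12.8 and 6.5 in mild, 4.2, 7.8 and 3.2 in moderate and 5.2, 10.1 and 23.8 in severe swelling. Hoxb9 was above the 40th percentile on 4 arrays only, the 3 naive arrays and 1 without swelling, so it entered the test through the groups in which it was high and had to differ. Its values are a description and lend no support to the count of lower members. Each swelling group lay below the naive arrays, and so did the group without swelling, where the difference was not called. Its log2 fold change was -1.07 ± 0.25 in severe (adjusted p = 0.00205), -1.49 ± 0.25 in moderate (0.000132) and -1.10 ± 0.25 in mild swelling (0.00289). On the hybridization controls the severe difference was -0.80 (adjusted p = 0.0617) and the mild one -0.72 (adjusted p = 0.107).

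Hoxa4, an anterior gene of the neck region, was also dim, with 36.3, 28.3 and 37.2 in naive and 3.4, 22 and 20.3 in severe joints. The groups between them held 18.5, 32.7 and 32.2 without swelling, 9.9, 27.8 and 16.7 in mild and 16.1, 17.5 and 24.7 in moderate swelling. It was above the mark on 5 arrays, 3 naive and 2 without swelling, so like Hoxb9 it entered the test only through groups in which it was high, and its values are a description. The severe and moderate arrays, and those of mild swelling, lay below the naive ones. Its difference in severe swelling was -0.73 ± 0.28 (adjusted p = 0.0355) and was lost without naive replicate 1, naive replicate 3 or severe replicate 1 (adjusted p 0.0871 to 0.199), and on the hybridization controls (-0.47, adjusted p = 0.282).

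**Figure D3:**
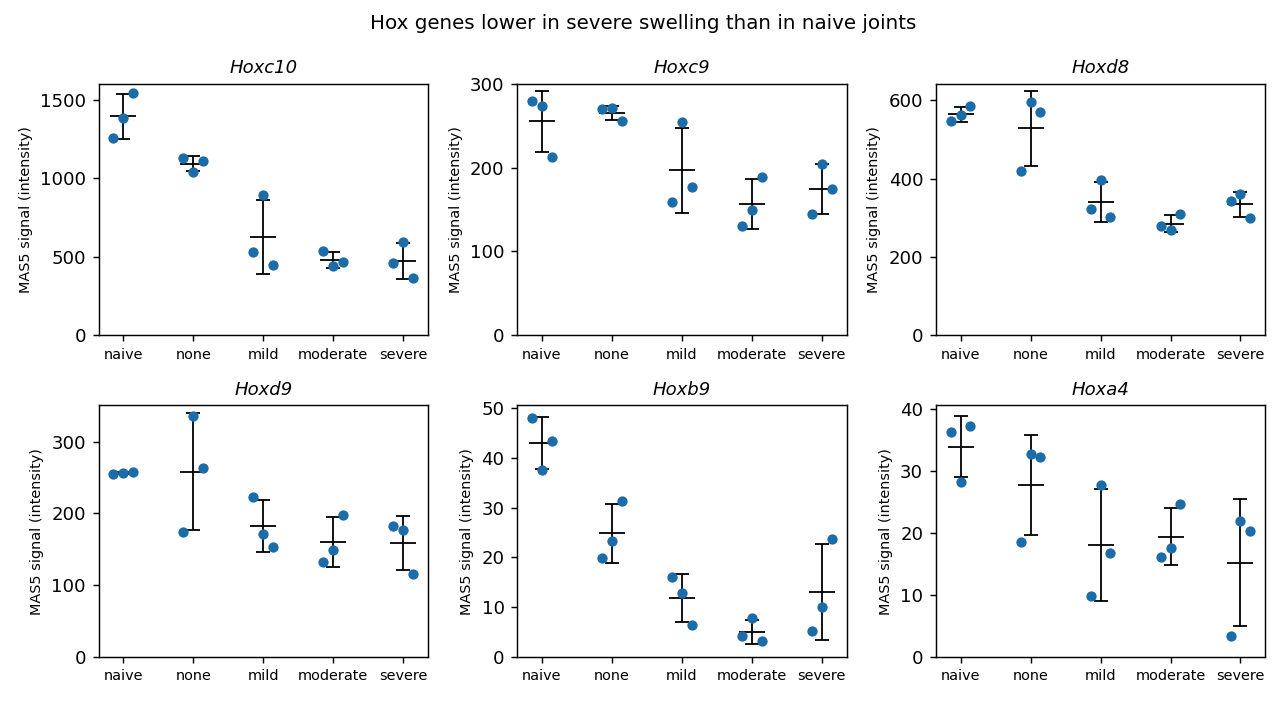
MAS5 signal of the 6 Hox genes called lower in severe swelling, by group; points are arrays, the horizontal line is the mean and the bars are 1 SD of 3 arrays. In Hoxc10 and Hoxd8 all 9 arrays with swelling sit below all 6 without, and the axes start at 0.

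Hoxa11, which patterns the leg segment below the knee, had 50.7, 72.8 and 68.5 in naive joints and 42.0, 76.9 and 38.3 without swelling. It had 58.9, 69.7 and 67.5 in mild, 79.0, 89.2 and 75.3 in moderate and 118.8, 89.7 and 93.2 in severe swelling. The severe arrays were above every array of every other group. Hoxa11 rose by 0.55 ± 0.20 against naive (adjusted p = 0.0268) and by 0.80 ± 0.20 against no swelling (0.00247). The first call was lost without naive replicate 1 or severe replicate 1 (adjusted p 0.112 to 0.118), after quantile normalization (0.35, adjusted p = 0.131) and with medians aligned (0.36, adjusted p = 0.117). Within arrays, the log2 difference Hoxd8 minus Hoxa11 moved from 2.87 ± 0.19 in naive to 1.59 ± 0.22 in severe joints (SD, n = 3; exact permutation p = 0.1, the smallest possible; pair chosen after its values were seen).

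The grades below severe were compared with the same 3 naive arrays, so these comparisons are not independent. In mild swelling 1 member was called higher and 3 lower (background 23.1% and 17.1%, 40.1% in either direction), and in moderate swelling 1 higher and 5 lower (30.9% and 23.8%, 54.7% in either direction). The lower ones in mild swelling were Hoxb9, Hoxc10 and Hoxd8, joined in moderate swelling by Hoxc9 and Hoxd9. Leaving out Hoxa4 and Hoxb9, which passed the filter only where they were high, 2 members were lower in mild and 4 in moderate swelling. On the hybridization controls the split was 2 higher and 0 lower in mild swelling, where Hoxb9, Hoxc10 and Hoxd8 were lost and Hoxb2 was gained. It was 2 higher and 2 lower there in moderate swelling, where Hoxc9, Hoxd8 and Hoxd9 were lost and Hoxd13 was gained. With array medians aligned it was 1 higher and 8 lower in mild swelling.

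The 1 member called higher in mild swelling was Hoxa5, a gene of the neck, lung and fat. Its signals were 137, 221 and 161 in naive joints, 276, 183 and 248 without swelling and 254, 345 and 319 in mild swelling. They were 273, 146 and 241 in moderate and 234, 303 and 203 in severe swelling. Mild swelling lay above the naive arrays, with a difference of 0.78 ± 0.23 (adjusted p = 0.0128), while severe swelling overlapped with them (0.48 ± 0.23, adjusted p = 0.0872). The mild call was lost without naive replicate 1 (adjusted p = 0.0646) and with the mean of its probe sets (0.30, adjusted p = 0.253), and the gene's dimmer probe set gave -0.18 there (adjusted p = 0.634).

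Joints of CIA mice without swelling differed from naive joints in no Hox gene at an adjusted p under 0.05 by limma, with 2 at an unadjusted p under 0.05. The background was also low, 3.28% of all genes tested, 1.52% higher and 1.76% lower. Those 2 were Hoxb2 (-0.59 ± 0.25, adjusted p = 0.214) and Hoxd10 (1.04 ± 0.29, adjusted p = 0.0611). The arrays without swelling lay below all naive arrays for 4 members, Hoxb2, Hoxb7, Hoxb9 and Hoxc10, and above them for 1, Hoxd10. The share of all genes with such separate groups is not given for this comparison.

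Hoxd10, which acts in the hindlimb and its motor neurons, stood out by being high in the group without swelling alone. Its signals were 32.1, 39.0 and 24.3 in naive joints and 65.6, 75.0 and 110.1 without swelling. They were 21.5, 30.6 and 26.3 in mild, 19.5, 22.7 and 16.3 in moderate and 10.8, 44.4 and 9.0 in severe swelling. No array of another group reached the lowest of the 3 arrays without swelling. The difference from naive passed the threshold with a pseudocount of 64 (adjusted p = 0.0306), with only the groups compared in the fit (0.0321) and without severe replicate 2 (0.015). From no swelling to severe swelling Hoxd10 fell by 1.51 (SE 0.29, adjusted p = 0.000353), and to mild swelling by 1.22 (0.0036). The step to mild swelling was not called on the hybridization controls (-0.65, adjusted p = 0.103).

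Severe was also set against no swelling, so that both groups were immunized. Of the 24 members 1 was called higher, Hoxa11, and 6 lower, Hoxa9, Hoxc9, Hoxc10, Hoxd8, Hoxd9 and Hoxd10 (background 33.1% and 22%, 55% in either direction). On the hybridization controls the split was 5 higher and 1 lower: Hoxa9, Hoxc9, Hoxc10, Hoxd8 and Hoxd9 were lost, with differences of 0.32, 0.03, -0.56, 0.00 and -0.03, and Hoxb2, Hoxb4, Hoxc6 and Hoxc8 were called higher beside Hoxa11. Hoxd10 was the 1 member called lower under both. Hoxa9, active in the limb and in blood progenitors, had 344, 358 and 383 in naive joints and 359, 426 and 445 without swelling. It had 302, 308 and 284 in mild, 321, 331 and 394 in moderate and 330, 348 and 308 in severe swelling. Mild and severe swelling both lay below the group without swelling, and Hoxa9 in severe swelling overlapped with naive. Its difference was -0.30 ± 0.12 (adjusted p = 0.0387), lost in 5 of the fits that left out 1 array (0.0502 to 0.143), with the mean of its probe sets (-0.17, adjusted p = 0.247) and with only the groups compared (adjusted p = 0.1). Its direction turned on the hybridization controls (0.32, adjusted p = 0.467).

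Of the steps between neighbouring grades, that from no to mild swelling held the calls, with 1 member higher and 5 lower (background 23% and 15.6%, 38.5% in either direction). The lower ones were Hoxa9, Hoxc4, Hoxc10, Hoxd8 and Hoxd10, and the higher one was Hoxb2. The split on the hybridization controls was 5 higher and 0 lower: the 5 lower calls were lost, and Hoxa5, Hoxa11, Hoxc6 and Hoxd13 were called higher beside Hoxb2. Hoxb2, a gene of the hindbrain and neck, had 34.6, 35.5 and 29.3 without swelling and 61.0, 91.2 and 68.9 in mild swelling, against 61.5, 59.3 and 53 in naive joints. In moderate swelling it had 58.0, 63.3 and 34.6 and in severe swelling 67.0, 27.6 and 73.9. The group without swelling lay below the naive and mild arrays, with 1 low array each in moderate and severe swelling, and the step was 0.86 ± 0.25 (adjusted p = 0.0127).

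Hoxc4, an anterior gene of HoxC, had 126, 114 and 84.5 without swelling and 70.7, 55.8 and 75.4 in mild swelling, a step of -0.57 ± 0.18 (adjusted p = 0.0185). Its naive arrays had 105, 101 and 87.5, its moderate ones 77.0, 109 and 74.2 and its severe ones 107, 79.9 and 103. Mild swelling lay below the naive arrays and those without swelling. The call was lost without replicate 1 or 2 of the group without swelling, or mild replicate 2 (adjusted p 0.0527 to 0.0812), and on the hybridization controls the direction turned (0.08, adjusted p = 0.842).

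From mild to moderate swelling limma called no member, with 1 at an unadjusted p under 0.05, Hoxc8, and 6.73% of all genes called (3.3% higher and 3.43% lower). From moderate to severe swelling it called none, with 2 at an unadjusted p under 0.05, Hoxa13 (0.52 ± 0.22, adjusted p = 0.743) and Hoxd13 (-0.92 ± 0.31, adjusted p = 0.742), and 0% of all genes called. Both are genes of the foot. Hoxd13 had 14.3, 32.5 and 28.2 in naive, 44.4, 44.2 and 59.3 in moderate and 33.9, 23.7 and 4.4 in severe joints. Its moderate arrays lay above the naive ones but the difference was not called (0.69 ± 0.31, adjusted p = 0.0728). It passed the threshold with a pseudocount of 64 (adjusted p = 0.0411) and on the hybridization controls (1.01, adjusted p = 0.0108). It also passed without severe replicate 3 (adjusted p = 0.031) and with only the groups compared (adjusted p = 0.0269).

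A linear slope over the 4 CIA groups, scored from 0 for none to 3 for severe swelling, was called upward for Hoxa11 and Hoxc8 and downward for Hoxb9, Hoxc9, Hoxc10, Hoxd8, Hoxd9 and Hoxd10 (background 33.6% and 22.7%, 56.3% in either direction). The slope per grade was -0.39 ± 0.07 for Hoxc10 (adjusted p = 0.000101), -0.48 ± 0.09 for Hoxd10 (0.000328) and 0.27 ± 0.06 for Hoxa11 (0.00164). The count of 8 fell to 5 without no-swelling replicate 3 and to 4 on the hybridization controls, where 3 members were called upward and 1 downward. Hoxb9, Hoxc9, Hoxc10 (-0.22, adjusted p = 0.111), Hoxd8 and Hoxd9 were lost there and Hoxc6 was gained. Hoxb9 passed at 0.0458 and was lost in 11 of the fits that left out 1 array. The Hoxc8 slope was lost after quantile normalization (0.08, adjusted p = 0.173) and with medians aligned (0.05, adjusted p = 0.371). It was also lost in 4 of the fits that left out 1 array (adjusted p 0.063 to 0.0949), and that of Hoxd9 in 3 (0.0512 to 0.0936). Leaving out Hoxa4 and Hoxb9, which passed the filter only where they were high, 2 of 22 members were called upward and 5 downward. The F test over the 5 group means called 9 members, the 8 of the slope, Hoxb9 among them, and Hoxa9, where 60.7% of all genes were called. In that test Hoxa9 was lost in 10 of the fits that left out 1 array (adjusted p 0.05 to 0.13), Hoxd9 in 4 and Hoxa11 in 2.

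**Figure D4:**
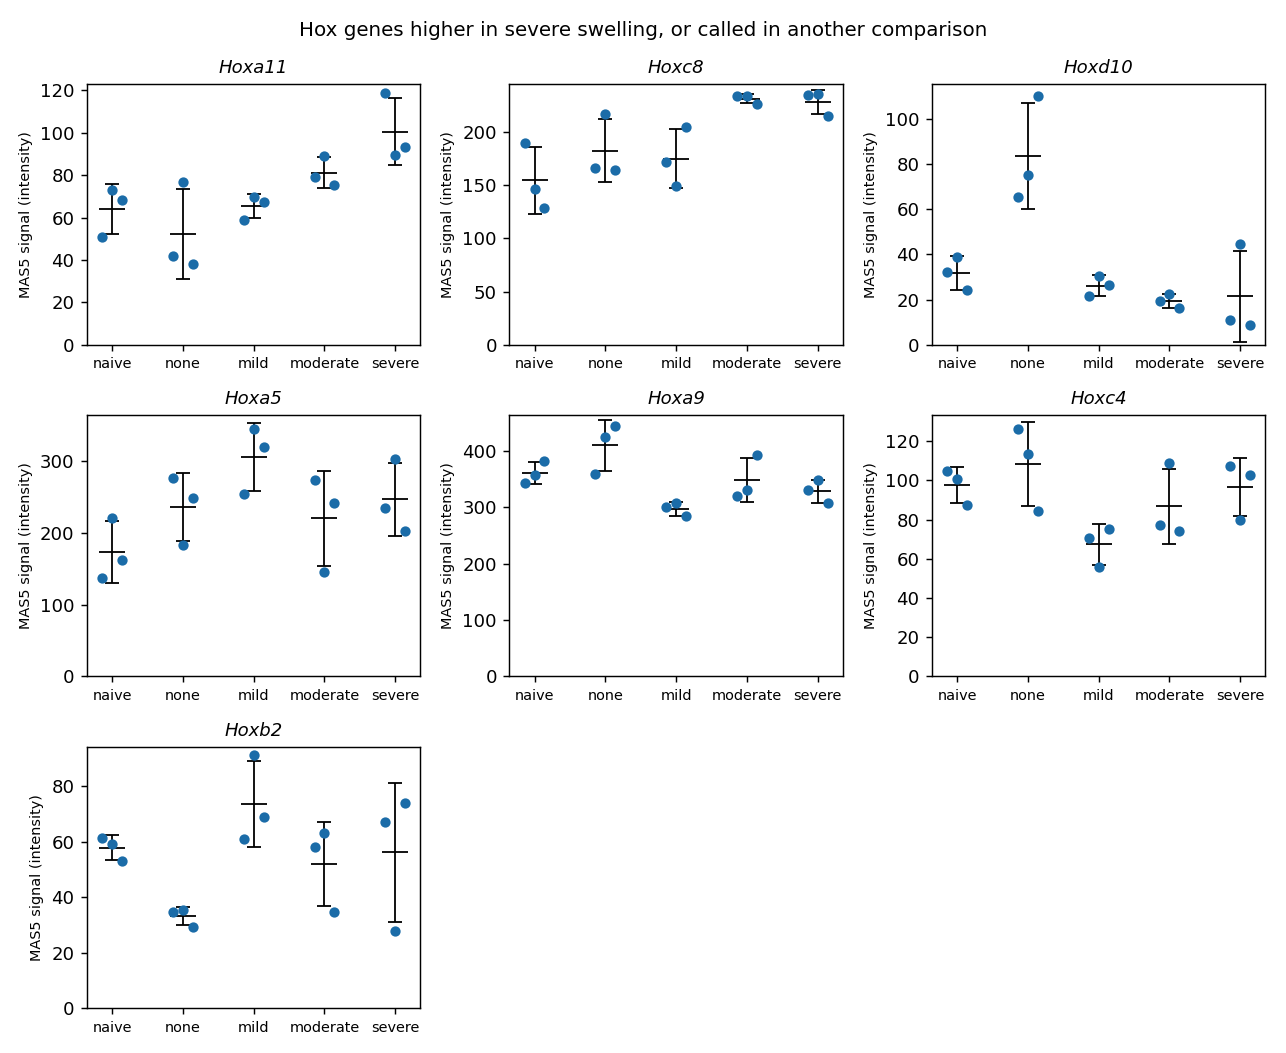
MAS5 signal of the Hox genes called higher in severe swelling (Hoxa11, Hoxc8) or called in another comparison (Hoxd10, Hoxa5, Hoxa9, Hoxc4, Hoxb2), by group; points are arrays, the line is the mean and the bars are 1 SD of 3 arrays. Hoxd10 is high, and Hoxb2 low, in the 3 arrays without swelling.

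Of the 24 tested members 13 (54.2%) were called in at least 1 of the 9 comparisons and 11 in none, where 72.8% of all genes tested were called in at least 1. The 13 include Hoxa4 and Hoxb9, which passed the filter only where they were high. Among the 11, the 6 with the highest mean were Hoxa10, Hoxc6, Hoxc5, Hoxa3, Hoxb3 and Hoxb4. Hoxa10, which acts in the thigh, had 209, 308 and 264 in naive joints, 214, 193 and 197 without swelling and 189, 203 and 146 in mild swelling. It had 146, 262 and 199 in moderate and 205, 140 and 263 in severe swelling. The severe and naive arrays overlapped, and the difference was -0.36 ± 0.22 (adjusted p = 0.177).

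Hoxc6, of the upper trunk, ranged only from 149 to 267 over the 15 arrays. Its signals were 226, 224 and 197 in naive, 202, 149 and 193 without swelling, 186, 267 and 166 in mild, 185, 159 and 209 in moderate and 219, 246 and 222 in severe swelling. Its severe difference was 0.08 ± 0.16 (adjusted p = 0.707), and it turned to -0.04 after quantile normalization and -0.13 with medians aligned. No group of Hoxc6 stood apart from the naive arrays.

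Hoxc5, between Hoxc4 and Hoxc6, had 67.4, 75.2 and 60.5 in naive, 73.7, 53.6 and 75.8 without swelling, 66.5, 60 and 56.9 in mild, 42.5, 50.2 and 64.9 in moderate and 40.8, 56.5 and 60.7 in severe swelling. The difference of -0.29 ± 0.18 was not called (adjusted p = 0.172). It was called after quantile normalization (-0.49, adjusted p = 0.027), with medians aligned (-0.46, adjusted p = 0.0428) and with the mean of its probe sets (-0.56, adjusted p = 0.0164). That mean was also called lower in moderate (-0.65, adjusted p = 0.0069) and mild swelling (-0.50, adjusted p = 0.039). The 2 dimmer probe sets of Hoxc5 gave -0.63 and -0.74 in severe swelling (adjusted p = 0.0677 and 0.0746). In mild swelling they gave -0.98 (adjusted p = 0.0115) and -0.40 (adjusted p = 0.375).

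Hoxa3, of the throat and neck, had 79.1, 33.3 and 94.4 in naive, 26.3, 81.5 and 40.2 without swelling, 54.5, 61.3 and 45.3 in mild, 28.1, 64.9 and 50.4 in moderate and 62, 53.9 and 57.2 in severe swelling. A dimmer probe set of Hoxa3 was called lower in mild swelling against naive (-0.55, adjusted p = 0.0282), and a different one gave 0.26 there (adjusted p = 0.447). Hoxb3, of the hindbrain and neck, had 47.6, 43.5 and 53.5 in naive, 45.3, 59.1 and 42.5 without swelling, 53.5, 56.7 and 54.8 in mild, 50.6, 54.9 and 49.9 in moderate and 50.3, 50.7 and 66.3 in severe swelling. Hoxb4, known from blood stem cells, was scattered, with 65.7, 24.6 and 33.8 in naive, 35.2, 53.3 and 31.2 without swelling, 35.0, 42.0 and 54.6 in mild, 32.4, 54.4 and 15.4 in moderate and 89.3, 24.1 and 83.7 in severe swelling. In each of the 3, severe and naive arrays overlapped, and the severe differences were -0.12 ± 0.32, 0.16 ± 0.15 and 0.45 ± 0.37 (adjusted p = 0.764, 0.417 and 0.322). That of Hoxb4 was called without severe replicate 2 (0.90, adjusted p = 0.0324) and on the hybridization controls (0.82, adjusted p = 0.0339).

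The other 5 members called in no comparison were dim: Hoxa13, Hoxb6, Hoxb7, Hoxd3 and Hoxd13. Their group means lay between 16.6 (Hoxb7 without swelling) and 49.3 (Hoxd13 in moderate swelling), and their severe differences between -0.31 ± 0.31 for Hoxb7 and 0.28 ± 0.26 for Hoxb6. A missed threshold does not show that these genes were equal: for Hoxb4 the 95% interval of the difference reached 1.23.

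The machinery around the Hox genes was described from lists, whose counts in severe swelling against naive stand beside 32.3% of all genes called higher and 22.9% called lower. Of 7 tested TALE cofactors, 3 were called higher and 1 lower in severe swelling against naive, with a median of -0.06 beside 0.11 over all genes. Pknox2 had 445, 436 and 355 in naive and 185, 172 and 156 in severe joints and fell by 1.19 (SE 0.19, adjusted p = 8.26e-05). Pbx3 had 66.0, 51.6 and 52.5 in naive and 140, 136 and 145 in severe joints and rose by 1.11 ± 0.19 (adjusted p = 0.000103). Pbx2 (0.84) and Meis2 (0.70) were the other 2 called higher, and Meis1 (-0.06), Meis3 (-0.18) and Pknox1 (-0.08) were not called. Meis2 was dim, with 22.3, 25.6 and 18.3 in naive and 50.5, 45.2 and 41.6 in severe joints. It passed the filter only through arrays with swelling, where it was high. Its higher value, 1 of the 3 called, was thus built into its choice and is a description. The share of genes in these lists that passed in this way is not given. Pknox2 was not called on the hybridization controls (-0.70, adjusted p = 0.0962), where none of the cofactors was called lower.

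Of 22 tested Polycomb and trithorax genes, 8 were called higher and 4 lower (background 32.3% and 22.9%), with a median of 0.21. The split was 5 and 5 after quantile normalization, 3 and 5 with medians aligned and 9 and 0 on the hybridization controls. Bmi1, a core subunit of the Polycomb complex PRC1, fell by 1.01 (SE 0.17, adjusted p = 9.57e-05), from 718, 738 and 753 in naive to 315, 457 and 316 in severe joints. Phc2, a different PRC1 subunit, rose by 1.22 ± 0.13 (adjusted p = 1.59e-06), from 350, 356 and 321 to 826, 790 and 845. Of PRC2, the methyltransferase Ezh2 rose by 0.68 ± 0.14 (adjusted p = 0.000633) while its partner Eed fell by 0.63 (SE 0.12, adjusted p = 0.000292). The PRC1 chromodomain genes also split, Cbx6 by 0.72 and Cbx7 by -0.62. Bmi1, Eed and Cbx7 were not called on the hybridization controls (adjusted p = 0.25, 0.782 and 0.717). The trithorax gene Kmt2a, a known activator of Hox genes, was higher by 0.38 ± 0.15 (adjusted p = 0.0423), a call lost after quantile normalization (0.34, adjusted p = 0.0801) and with medians aligned (0.17, adjusted p = 0.337). Its relative Kmt2d was lower (-0.48 ± 0.12, adjusted p = 0.00342), but not on the hybridization controls (0.01, adjusted p = 0.979).

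Of 22 tested transcription factors of limb and joint, 12 were called higher and 2 lower (background 32.3% and 22.9%), with a median of 0.52. The split was 8 and 3 after quantile normalization and with medians aligned, and 12 and 0 on the hybridization controls. Tbx18 rose from 29.5, 69.9 and 30.7 in naive to 374, 307 and 365 in severe joints (2.68 ± 0.26, adjusted p = 7.42e-07), and Prrx2 by 2.05 ± 0.22 (adjusted p = 2.06e-06). Twist1, Shox2 and Erg, also named for a low p and not for the size of the change, rose by 1.20, 1.12 and 0.85. En1, which marks ventral limb skin, fell by 0.84 (SE 0.19, adjusted p = 0.00154).

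Among them, the hindlimb genes Pitx1 and Tbx4 and the forelimb gene Tbx5 were picked after their values were seen. Pitx1 had 54.4, 51.9 and 45.7 in naive and 120, 94.6 and 119 in severe joints and was higher by 0.93 ± 0.28 (adjusted p = 0.0109). Tbx4 was higher by 0.84 ± 0.26 (adjusted p = 0.0133) from dim values of 5.0, 26.0 and 12.1 to 46.9, 30.9 and 31.9. It passed the filter only through arrays with swelling, where it was high, so these values are a description. Tbx5 had -0.03 ± 0.49 (adjusted p = 0.965). None of the 6 ParaHox genes, relatives of the Hox genes that act in gut and brain, passed the filter.

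Markers of other cells moved with the groups in which Hox genes were called, and in such bulk tissue fewer cells of a type and less RNA per cell cannot be told apart. All 13 fibroblast markers were called higher in severe swelling (median 2.06), with 12, 11 and 13 called after quantile normalization, with medians aligned and on the hybridization controls. Their summed signal was 28410 to 29340 on the naive and 60621 to 88669 on the severe arrays. Of 10 tested leukocyte markers 9 were higher (median 2.94), with sums of 2491 to 2696 in naive and 18780 to 25508 in severe joints. Of 8 adipocyte markers 7 were lower (median -1.76, 6 to 8 lower under the other scalings), and their sum was 13341 to 17175 in naive, 12927 to 17463 without swelling, 7837 to 8388 in mild, 5294 to 6755 in moderate and 5069 to 7665 in severe joints. The adipocyte sums thus separated the 9 arrays with swelling from the 6 without, as the signals of Hoxc10 and Hoxd8 did. The fibroblast and leukocyte sums separated the same arrays, upward, so this was not particular to the adipocyte list. Without swelling they reached 33964 and 6451.5, and in mild swelling they began at 39502 and 12164. A link between any of these lists and the Hox genes was not tested. Fabp4, the brightest gene of the list, overlapped between naive (3944.5 to 5459.5) and mild joints (3198.2 to 4133.2). In severe swelling it was not called by limma after quantile normalization (-0.13, adjusted p = 0.457) or on the hybridization controls (0.22, adjusted p = 0.598). Slc2a4, Lpl and Plin4 were among the lower ones (-2.79, -1.92 and -2.37). Adipoq had 1596.8, 750.0 and 912.8 in naive and 298.3, 125.5 and 498.4 in severe joints. Lep passed the filter only through arrays without swelling, so its lower value was built into its choice. Whether the signals of this list came from fat or from the muscle in the same material was not tested.

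Of 16 skeletal muscle markers 6 were lower (median -0.22, with 8, 8 and 4 lower under the other scalings, the last with a median of 0.29), among them the slow-fibre genes Myl2 (-4.44) and Myh7 (-4.11). Without swelling, Myl2 (167.7, 1963.5 and 464.2) and Myh7 (87.4, 762.6 and 65.5) were already below all naive arrays, though no muscle marker was called there. The muscle sums were 127865 to 148564 in naive and 142479 to 150174 without swelling. They were 91700 to 101282 in mild, 65689 to 103911 in moderate and 100227 to 137700 in severe joints, so naive and severe arrays overlapped. Of 7 chondrocyte markers 5 were higher (median 2.36), and of 8 endothelial markers 4 (median 0.48). Of 8 marrow progenitor markers 1 was higher and 1 lower (0.03), and of 4 keratinocyte markers 2 were lower (-0.51), with none called on the hybridization controls. No marker with a probe set was listed at 0 on every array. The 3' to 5' signal ratio of the beta-actin control probe sets, a measure of RNA quality, was 0.89 to 1.03 in naive, 1.07 to 1.16 without swelling and 1.21 to 1.27 in severe joints. That of the Gapdh control probe sets overlapped, with 0.83 to 0.89 in naive, 0.80 to 0.89 without swelling and 0.83 to 0.96 in severe joints. The part of cell composition and RNA quality in the Hox differences was not tested.

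**Figure D5:**
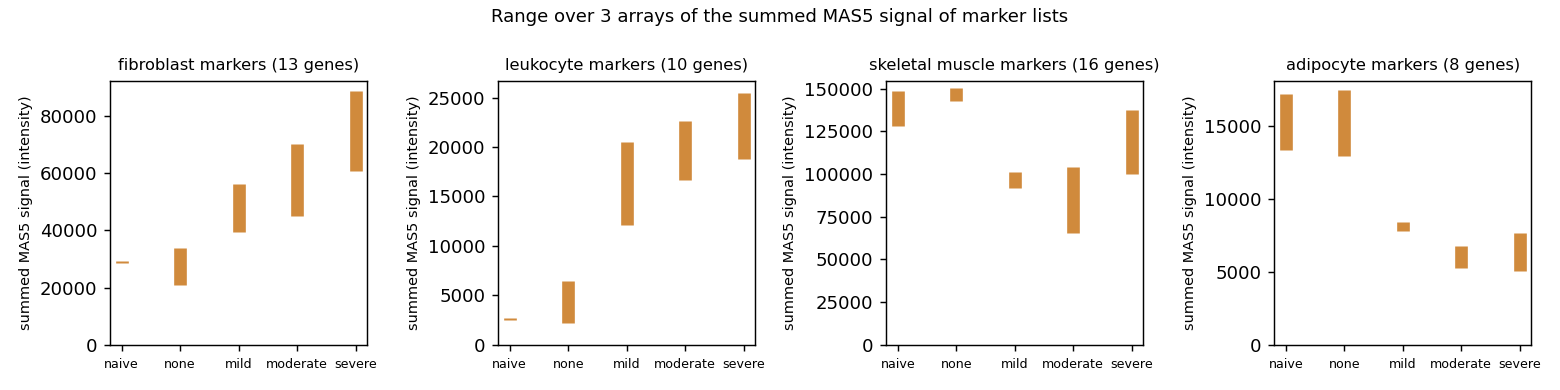
Bars span the lowest to the highest of 3 arrays in the summed MAS5 signal of 4 marker lists, by group. Fibroblast and leukocyte sums are higher in all 3 swelling grades than in naive joints, adipocyte sums are lower in them, and muscle sums are lowest in mild and moderate swelling.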

How the data were processed

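The submitters' processing notes name MAS5 as the source of the deposited intensity values, linear signals of 45101 probe sets on 15 arrays, scaled by the authors. Genes were named through GEO's platform annotation (34958 probe sets with a single symbol, 18194 genes), and promoters come from RefSeq. Values were tested as log2(signal + 16), which understates the change of dim genes. The 14315 genes that passed the 40th percentile of 3 or more arrays were fitted with limma 3.58.1 in R 4.3.3 as 5 group means, with a trended empirical Bayes step (10 residual and 5.52 prior degrees of freedom). Calls are at a two-sided Benjamini-Hochberg adjusted p under 0.05 over all genes tested, and precision is limited by the number of arrays. The steps were tested on simulated data.

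The members, lists and comparisons were chosen with earlier results of these data known. Per-array values are given for members called in any comparison and the 6 with the highest mean among the others; of each list, members are named from the 6 with the lowest p. Meis1, Kmt2a, Kmt2d, Pitx1, Tbx4, Tbx5, Sox9, Fabp4, Adipoq, Lep, Prg4, Acta1 and Ckm were named after their values were seen. Alternatives were pseudocounts of 1 and 64, no filter, a filter at the 60th percentile, 3 other scalings, averaging the probe sets of each gene, no trend, only the groups compared, a replicate block and leaving out each array. Testing every Hox probe set by itself was added after seeing the data.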

Additional observations from a re-analysis of the deposited data

Results flagged for a closer look

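A probe set of Hoxd3os1, a transcript antisense to the HoxD cluster that is outside the Hox gene rule, had a mean signal of 74.1 in moderate swelling (56.9, 82.8 and 82.7), with all 3 arrays above the naive ones (49.7, 38.3 and 36.1). Its log2 fold change was 0.65 ± 0.22 (limma adjusted p = 0.0186). In severe swelling it had 57.3, 66.3 and 47.6, which overlapped with naive (0.35 ± 0.22, adjusted p = 0.186). A dimmer probe set of the same transcript had means of 20.0 in naive and 22.1 in moderate swelling, above the array's 40th percentile on 6 of 15 arrays.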

How the results depend on the processing

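Of 259 counts of called Hox genes under the alternatives, 249 stayed within 1.5 times the count reported. Severe against naive (8) gave 5 on the hybridization controls and 5 to 10 over the fits without 1 array. No swelling against naive (0) gave 1 with a pseudocount of 64, 1 with only the groups compared, and 0 to 1 without 1 array. Mild against naive (4) gave 9 with array medians aligned and 2 on the hybridization controls. The slope (8) gave 4 on the hybridization controls and 5 to 8 without 1 array. The totals hide the direction: on the hybridization controls 1 higher and 6 lower in severe against no swelling became 5 and 1, 1 and 5 in mild against no swelling became 5 and 0, and 1 and 5 in moderate swelling against naive became 2 and 2. The cause of these shifts was not tested.

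Log2 fold changes in severe swelling that turned were in genes not called. They were Hoxb3 (-0.022) and Hoxc6 (-0.040) after quantile normalization, and Hoxb3 (-0.013) and Hoxc6 (-0.13) with medians aligned. On the hybridization controls they were Hoxa3 (0.28), Hoxa9 (0.36), Hoxa10 (0.11), Hoxb2 (0.29), Hoxb7 (0.027), Hoxc4 (0.42), Hoxc5 (0.11), Hoxd3 (0.21) and Hoxd13 (0.093). Without 1 array the ranges that crossed 0 were -0.48 to 0.10 for Hoxa3, -0.30 to 0.23 for Hoxb2, -0.48 to 0.0024 for Hoxb7, -0.088 to 0.093 for Hoxc4, -0.19 to 0.027 for Hoxd3 and -0.50 to 0.15 for Hoxd13.

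Deviations of same-numbered arrays correlated at -0.51 to 0.33 over 30 pairs of arrays (median -0.04). Those of differently numbered arrays correlated at -0.27 to 0.39 over 60 pairs (median 0.02). The samples were treated as unpaired, but with so few arrays a group these values cannot exclude a pairing. With the replicate block the counts were 8 for severe, 6 for moderate and 4 for mild swelling against naive, 7 for the slope, where Hoxb9 was lost, and 8 for the F test. Brightness over background limits the dim members, Hoxa4 and Hoxb9 above all, whose severe signals lay below the 40th percentile.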

Other observations

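Other probe sets of the Hox clusters lay outside the rule. Hoxb5os had 2.8, 13.2 and 39.3 in naive joints, 11.7, 2.0 and 4.4 without swelling, 42.3, 19.5 and 20.1 in mild, 24.4, 15.4 and 26.3 in moderate and 12.7, 33.6 and 21.9 in severe swelling, and was called higher from no to mild swelling (0.96 ± 0.36, limma adjusted p = 0.0436). The probe sets annotated to both Hoxd4 and Hoxd3 had group means of 2.37 to 21.2, and that of Hoxb8 and Hoxb7 had 13.4 to 24.9. Those of Hoxa11os had group means of 1.63 to 19.7, above the 40th percentile on at most 1 array.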
